A study of Homo sapiens with 2 samples.

Results

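The 10 genes described here respond to, and mostly feed back on, the ERK branch of MAP kinase signalling, and were measured in the triple-negative human breast cancer line SUM-159. They were taken by name from the deposited expression table: the phosphatase genes DUSP1, DUSP4, DUSP5 and DUSP6, the Sprouty and Spred genes SPRY2, SPRY4, SPRED1 and SPRED2, and the ERK-responsive genes PHLDA1 and IER3. All 10 of 10 were found among 60880 rows, and all 10 averaged at least 1 RPKM over both libraries (reads per kilobase of gene per 1000000 reads on genes). One RNA library came from cells labelled PD-L1L2-SE deficient, after a super-enhancer that the study's title links to the PD-1 ligands, and 1 from control cells labelled sgVector. They are called deficient cells and sgVector cells below. Both groups are the same cell line with no other treatment in the labels, and the labels do not state whether either is 1 clone or a pool. Since each group is a single library, no difference could be checked against replicates, and no p-value is given. Intervals are 95% and cover counting error only.

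ERK signalling runs from receptors through RAS, RAF and MEK to the kinases ERK1 and ERK2. Active ERK induces genes whose products dampen it. Dual-specificity phosphatases (DUSPs) remove the activating phosphates from MAP kinases, while Sprouty and Spred proteins act further up, at the level of RAS and RAF. Transcripts of these genes are widely read as a measure of ERK output in tumour cells. SUM-159 cells carry an activating HRAS mutation.

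Promoter sequence was available from RefSeq (GRCh38.p14) for 7 of the 10 genes, namely DUSP1, DUSP6, SPRY2, SPRY4, SPRED1, SPRED2 and PHLDA1. The 250 bases before the outermost listed start were searched on both strands for a cyclic AMP response element (TGACGTCA), an AP-1 site (TGANTCA), an ETS core (CCGGAA) and the CArG box of serum response factor. These motifs belong to factors that act downstream of MAP kinases. Windows are shown for a gene whose level hardly differed (DUSP1) and for one that was higher in deficient cells (SPRY2), both free of annotated exons, and a 30-base stretch for the gene with the largest difference (PHLDA1), whose window lies wholly within annotated exons (250 of 250 bases), as do those of DUSP6 and SPRED1. Capitals mark the motif found.
DUSP1, chr5:172771196-172771445, minus strand: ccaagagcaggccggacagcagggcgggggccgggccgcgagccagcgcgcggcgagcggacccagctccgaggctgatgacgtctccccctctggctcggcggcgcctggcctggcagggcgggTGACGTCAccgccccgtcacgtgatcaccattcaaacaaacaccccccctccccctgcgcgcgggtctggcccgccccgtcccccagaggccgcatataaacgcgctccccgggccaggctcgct
SPRY2, chr13:80341127-80341376, minus strand: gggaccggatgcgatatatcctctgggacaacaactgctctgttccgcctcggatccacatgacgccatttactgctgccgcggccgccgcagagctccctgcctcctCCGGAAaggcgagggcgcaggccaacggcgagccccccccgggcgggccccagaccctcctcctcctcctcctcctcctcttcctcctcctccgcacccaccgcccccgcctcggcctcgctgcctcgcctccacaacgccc
PHLDA1, chr12:76031848-76031877, minus strand: gaggagaggagtTTCCGGggctcgggtccg
The cyclic AMP response element of DUSP1 began 125 bases before the start. An ETS core lay 142 bases before the start of SPRY2 and, on the other strand, 89 bases before that of PHLDA1, a RefSeq start 2156 bases from the outermost GENCODE one. Among 34943 windows of the same length, 1.63% held the cyclic AMP response element and 14.5% the ETS core. None of the 7 windows held an AP-1 site or a CArG box, which 6.59% and 1.16% of all windows did. A match is a description of these letters and says nothing of what binds there.

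Depth was 16381546 reads on genes for deficient cells and 16206675 for sgVector cells, of which the 10 genes took 0.150% and 0.167%. CD274, which encodes PD-L1, stood at 0.698 RPKM in deficient and 7.16 RPKM in sgVector cells, and PDCD1LG2, which encodes PD-L2, at 1.19 and 5.32 RPKM, so both genes the element is named for were lower under the deficient label. The hormone receptor genes that define a triple-negative line were scarce, with 0 reads of PGR in either library, which allows up to 3 reads, and 6 and 2 reads of ESR1. ERBB2 had 1690 and 1175 reads. Luminal markers summed to 48.5 RPKM in deficient and 57.2 in sgVector cells (5 of 7 past 1 RPKM), basal and mesenchymal markers to 613 and 976 (6 of 8), fibroblast markers to 7.34 and 6.31 (2 of 4), and the 3 matched endothelial markers to 0.153 and 0.0730. The leukocyte sum of 15.5 and 11.2 RPKM was mostly CD14, the 1 of 6 past 1 RPKM, with CD3E at 0 in both. The basal and mesenchymal difference was mostly VIM, the vimentin gene, at 389.7 RPKM in deficient and 746 in sgVector cells. Without it the sums were 223 and 230 RPKM. Of the 6 genes past 1 RPKM, VIM included, 3 were above 0 and 3 below, with KRT17 higher at 8.13 against 3.84 RPKM. The part of these marker differences in the results below was not tested.

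Across the members no gene differed by 2-fold or more between the libraries. The threshold was a log2 ratio of (RPKM + 0.1), deficient over sgVector, of at least 1 or at most -1, a scale that understates the change of low genes. The count was 0 of 10 members higher, where 3.03% of the 13552 genes averaging 1 RPKM or more and 2.10% of the 10576 protein-coding ones were. It was 0 of 10 lower, where 4.69% and 2.07% were. At 1.5-fold 0 members were higher, beside 8.29% of all and 6.92% of protein-coding genes. At 1.5-fold 1 member, PHLDA1, was lower, beside 12.6% and 8.67%. With 5 members above 0 and 5 below, the member median was -0.0044, and that of all genes -0.05. The member median was above 0 under 5 of 9 alternatives (0.05 with centring, 0.07 with TMM). The median absolute log2 ratio was 0.30 for the members and 0.28 for all genes. The counting interval lay above no change for 4 members and below it for 3, against 25.9% and 32.6% of all genes. An interval off no change was thus common in this pair of libraries. In bulk RNA fewer cells of a type and less RNA per cell cannot be told apart.

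**Figure D1:**
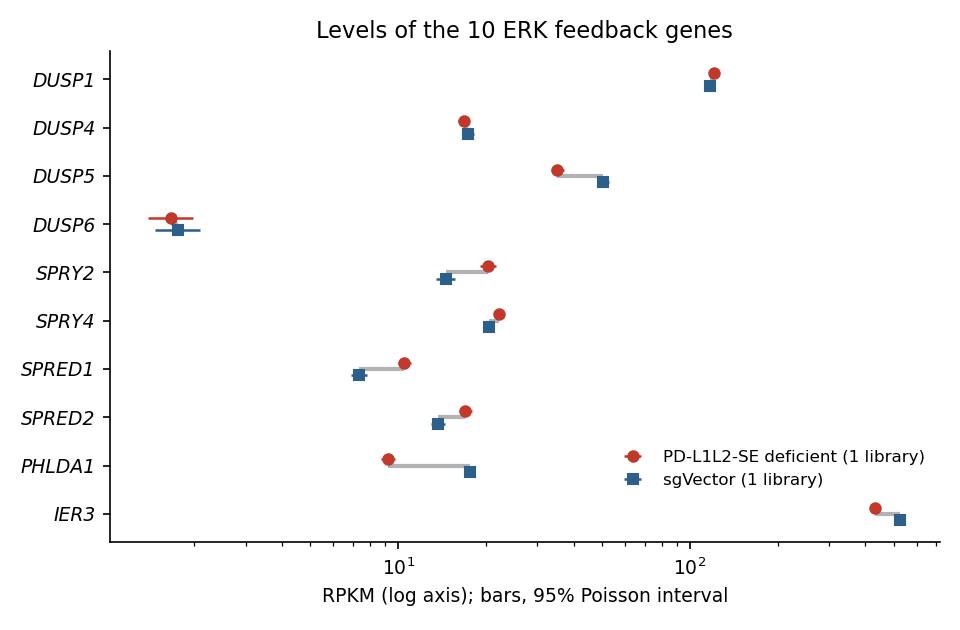
Level of each gene in RPKM (log axis) in the PD-L1L2-SE deficient library (circles) and the sgVector library (squares), with 95% Poisson intervals and a grey line joining the libraries. PHLDA1 shows the widest gap, at 9.23 against 17.6 RPKM, while DUSP1, DUSP4 and DUSP6 nearly coincide.

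Of the nuclear, inducible phosphatase genes, DUSP1 and DUSP4 were nearly level, while DUSP5, described below, was lower in deficient cells. DUSP1, an early-response phosphatase that acts on p38 and JNK as well as ERK, stood at 121 RPKM (3997 reads) in deficient cells and 118 RPKM (3848 reads) in sgVector cells. The ratio of 1.03 (0.983 to 1.07) spanned no change. DUSP4, a nuclear phosphatase of ERK, stood at 16.8 RPKM (1997 reads) and 17.4 RPKM (2043 reads), a ratio of 0.967 (0.909 to 1.03) that also spanned no change. DUSP1 and DUSP4 thus differed by no more than counting error between the libraries as deposited, while the GC and length correction took DUSP1 from a log2 ratio of 0.04 to 0.24.

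Among the phosphatase members, DUSP5 alone had a counting interval that excluded no change. It encodes a nuclear phosphatase selective for ERK, and it stood at 35.2 RPKM (1506 reads) in deficient cells against 50.6 RPKM (2143 reads) in sgVector cells. It was 1.44-fold lower (1.35 to 1.54), a log2 ratio of -0.52, and 10.8% of 10576 protein-coding genes lay as low or lower. After a correction for GC content and length the log2 ratio was -0.31.

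DUSP6, the cytoplasmic phosphatase of ERK and a common readout of the pathway, was the least abundant member. It had 1.66 RPKM (126 reads) in deficient cells and 1.76 RPKM (132 reads) in sgVector cells. Its ratio of 0.944 had the widest interval of the members, 0.734 to 1.21, so a difference within those bounds was not detectable at this depth. Only 9.22% of protein-coding genes past the 1 RPKM floor had less in sgVector cells, whereas DUSP1 exceeded 98.0% and DUSP4 77.1% of them. An antisense gene with no symbol in the name table overlaps DUSP6 over 1875 exon bases and had 3 reads in deficient and 0 in sgVector cells. The strand setting of the counting is not stated, so how reads on bases shared with an antisense gene were assigned is not known. The levels of such overlapping genes are uncertain to that extent.

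All 4 Sprouty and Spred members were higher in deficient cells by small amounts, beside 6034 of 13552 genes above 0. Relative to the medians of their chromosomes, SPRY4 stood at -0.01 and SPRY2 at 0.01. SPRY2, an inhibitor of receptor tyrosine kinase signalling whose promoter window is shown above, stood at 20.3 RPKM (1009 reads) against 14.6 RPKM (717 reads). It was 1.39-fold higher (1.26 to 1.53), a log2 ratio of 0.47. SPRY4, which acts like SPRY2 on the path from receptors to RAF, stood at 22.1 RPKM (2381 reads) against 20.5 RPKM (2176 reads). Its ratio of 1.08 (1.02 to 1.15) was the smallest of the 4. SPRY4-AS1, on the opposite strand within the SPRY4 locus and sharing 0 exon bases with it, had 6 reads against 24.

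The Spred genes encode membrane-bound relatives of Sprouty that recruit the RAS inhibitor neurofibromin. SPRED1 stood at 10.5 RPKM (1419 reads) in deficient cells and 7.35 RPKM (984 reads) in sgVector cells. It was 1.43-fold higher (1.31 to 1.55), and its log2 ratio of 0.51 was the highest of the members, with 9.19% of protein-coding genes as high or higher. The GC and length correction took it to 0.33, and its transcript, at 38.9% GC, is in the class of lowest GC content, whose median log2 ratio was 0.14. SPRED2 stood at 17.0 RPKM (1436 reads) against 13.7 RPKM (1144 reads), 1.24-fold higher (1.15 to 1.34). NF1, which encodes neurofibromin itself, was 7.34 RPKM in deficient and 5.99 in sgVector cells, 1.22-fold higher (1.16 to 1.29).

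PHLDA1 and IER3 are ERK-responsive genes outside these families, and both were lower in deficient cells. PHLDA1, a pleckstrin-homology domain protein used in transcript scores of ERK activity, stood at 9.23 RPKM (1220 reads) against 17.6 RPKM (2303 reads). It was 1.91-fold lower (1.78 to 2.05), a log2 ratio of -0.92, so that it lay just short of 2-fold with an interval that reached past it. Of protein-coding genes, 2.69% lay as low or lower. The antisense genes PHLDA1-AS1 and PHLDA1-DT share 553 and 779 exon bases with it and had 0 reads in both libraries.

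IER3, an immediate-early gene that affects ERK signalling and survival, was the most abundant member at 429.8 RPKM (9547 reads) in deficient cells and 524 RPKM (11516 reads) in sgVector cells. It was 1.22-fold lower (1.19 to 1.25), a log2 ratio of -0.29. The correction for GC content and length took this to -0.04, and the IER3 transcript is GC-rich at 58.5%, in the class of protein-coding genes of highest GC content, whose median log2 ratio was -0.20. IER3-AS1 overlaps it by 359 bases with 2 reads against 4.

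The order of levels was the same at the top and the bottom in both libraries. IER3, DUSP1, DUSP5 and SPRY4 ranked 1 to 4 and DUSP6 ranked 10 in each. Between them, PHLDA1 ranked 5 in sgVector cells and 9 in the deficient library, where it stood behind SPRY2, SPRED2, DUSP4 and SPRED1. In the sgVector library the intervals of PHLDA1 and DUSP4 overlapped, as did those of SPRY2 and SPRED2. In the deficient library SPRY4 overlapped SPRY2, and SPRED2 overlapped DUSP4. IER3 exceeded DUSP1 per kilobase by 4.46 times in sgVector cells and by 3.56 times in the deficient library.

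The chromosomes that carry the members differed in their own medians, so each gene was set beside its surroundings, with positions in hg19. SPRY2 (ENSG00000136158, chromosome 13 from 80910111 to 80915086) had a log2 ratio of 0.47, and the median of 180 protein-coding genes on chromosome 13 was 0.46, with 172 of them above 0. Relative to that median SPRY2 stood at 0.01, and 47.8% of the chromosome's genes lay as high or higher. No other protein-coding gene past 1 RPKM lies within 500 kb of it. NDFIP2, the nearest on the side of lower coordinates at 780 kb, stood at 0.94.

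SPRED1 (ENSG00000166068, chromosome 15 from 38544527 to 38649450) lay among genes that were higher too. Its 2 neighbours within 500 kb had log2 ratios of 0.54 and 0.66, FAM98B being the nearer at 0.54, and the chromosome median was 0.20. Relative to the chromosome SPRED1 stood at 0.31. SPRED2 (ENSG00000198369, chromosome 2 from 65537985 to 65659771) stood at 0.31, above the median of its chromosome, -0.01. Its 4 neighbours ran from -0.24 to 0.33 with a median of 0.05, ACTR2 being the highest. SPRY4 (ENSG00000187678, chromosome 5 from 141689992 to 141706020) at 0.11 lay at the chromosome median of 0.12. Whether the same differences that set the chromosome medians set the values of SPRY2 and SPRED1 was not tested.

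PHLDA1 and DUSP6 share chromosome 12, whose median over 571 protein-coding genes was -0.29. PHLDA1 (ENSG00000139289, from 76419227 to 76427712) lay at -0.63 relative to it, with 6.65% of the chromosome's genes as low or lower. Its 3 neighbours within 500 kb had a median of 0.15, and NAP1L1, 2.66 kb away, stood at -0.45. DUSP6 (ENSG00000139318, from 89741009 to 89747048) stood at 0.21 relative to the chromosome. The counting interval of its log2 ratio before that subtraction was wide, at -0.45 to 0.28.

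DUSP5 (ENSG00000138166, chromosome 10 from 112257596 to 112271302) was lower than its surroundings. Its 7 neighbours had a median of 0.11, with SMNDC1 at 0.11 and SMC3 at 0.14 on either side, and the chromosome median was -0.08. IER3 (ENSG00000137331, chromosome 6 from 30710976 to 30712331) lies 0.466 kb from FLOT1, which stood at 0.22. Of its 21 neighbours 14 were below 0, with a median of -0.18. DUSP1 (ENSG00000120129, chromosome 5 from 172195093 to 172198198) at 0.04 was below the 0.36 median of its 8 neighbours. DUSP4 (ENSG00000120875, chromosome 8 from 29190581 to 29208185) at -0.05 was above the -0.33 median of its 3. The chromosome medians were 0.06 for IER3, 0.12 for DUSP1 and 0.13 for DUSP4, and each of these genes lay below its own.

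**Figure D2:**
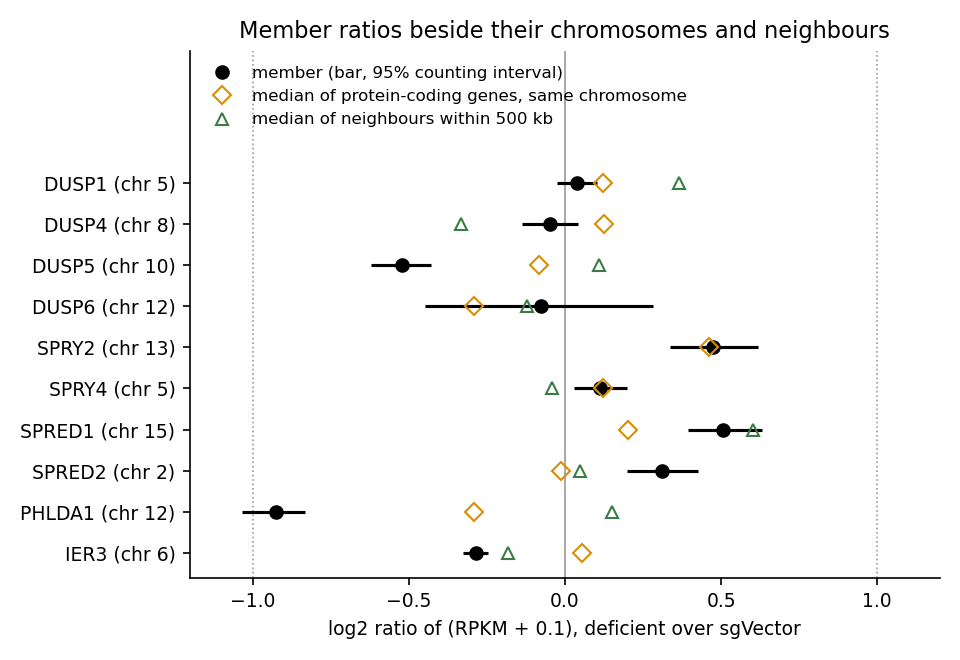
Log2 ratio of (RPKM + 0.1), deficient over sgVector, for each member with its 95% counting interval, beside the median of protein-coding genes on its chromosome (diamonds) and of neighbours within 500 kb (triangles, none for SPRY2). Dotted lines mark 2-fold. SPRY2 and SPRY4 sit on their chromosome medians, while PHLDA1, DUSP5, IER3 and DUSP1 lie below both marks.

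Paralogs of the phosphatase and Sprouty genes were next compared, 10 in all, of which 6 averaged 1 RPKM or more. Of these, 0 were 2-fold higher or lower and 2 were at least 1.5-fold lower, beside 12.6% of all and 8.67% of protein-coding genes. Their median log2 ratio was -0.35, beside -0.05 for all genes. DUSP7, a cytoplasmic ERK phosphatase of the same class as DUSP6, stood at 8.26 RPKM (764 reads) in deficient cells against 13.3 RPKM (1218 reads), a log2 ratio of -0.68. DUSP8 and DUSP10, which act mainly on JNK and p38, stood at -0.71 and -0.39. DUSP16, of the same class, was at -0.03, and STYXL1, a phosphatase relative without catalytic activity, at -0.31. SPRED3 stood at 0.14. DUSP7, DUSP8 and SPRED3, at 59.2%, 64.6% and 58.8% GC, are in the class of highest GC content, whose median log2 ratio was -0.20. DUSP7 exceeded DUSP6 per kilobase in both libraries, at 8.26 against 1.66 RPKM and 13.3 against 1.76 RPKM.

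The other paralogs were under 1 RPKM and are given as levels. SPRY1 stood at 0.924 RPKM (60 reads) in deficient cells and 0.778 RPKM (50 reads) in sgVector cells. SPRY3 stood at 0.785 RPKM (116 reads) and 0.636 RPKM (93 reads), and DUSP2 at 0.569 (18 reads) and 0.479 (15 reads). DUSP9 had 0 reads against 2. The ratios of SPRY1, SPRY3 and SPRED3, at 1.19, 1.23 and 1.10, had intervals that spanned no change, as did that of DUSP2. With the floor lowered to 0.5 RPKM the paralog median was -0.03, since SPRY1, SPRY3 and DUSP2 then entered.

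Genes of the cascade itself differed little between the libraries. Of 20 listed, all past 1 RPKM, 16 were above 0 and 4 below, beside 6034 of all 13552 genes and 4907 of 10576 protein-coding genes above 0. Their median log2 ratio was 0.13, that of all genes -0.05, and 0 were past 1.5-fold. The split was 14 and 6 after the GC and length correction and relative to chromosome medians. SHC1, an adaptor of activated receptors, stood at 78.3 RPKM against 53.0 RPKM, a log2 ratio of 0.56. NRAS, a RAS GTPase gene, was at 0.55, and MAPK3, which encodes ERK1, at 0.33. Among those below 0, MAP2K2, which encodes MEK2, was at -0.25 and BRAF, a kinase that activates MEK, at -0.16. HRAS stood at 15.2 and 14.6 RPKM, a ratio of 1.04 (0.912 to 1.19) that spanned no change.

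Transcripts known as outputs of ERK differed in direction from each other. Of 25 listed, 21 were past 1 RPKM. Past 2-fold, 1 was higher and 3 were lower, beside 3.03% and 4.69% of all genes. Below 0 were 15 of the 21 (12 with TMM), beside 7518 of 13552, with a median of -0.21. That median was -0.14 with TMM and -0.11 with the GC and length correction. HBEGF, which encodes a ligand of the EGF receptor, stood at 1.76 RPKM (87 reads) against 4.56 RPKM (223 reads), 2.59-fold lower (2.01 to 3.36). FOSL1, an AP-1 subunit that ERK stabilises, stood at 34.2 RPKM (1058 reads) against 78.3 RPKM (2394 reads), 2.29-fold lower (2.13 to 2.46), and the GC and length correction brought its log2 ratio to -0.94, short of 2-fold. The cytokine gene LIF stood at 1.48 RPKM (96 reads) against 3.30 RPKM (212 reads), a log2 ratio of -1.11 that was -0.79 with a pseudocount of 1, -0.93 with the GC and length correction and -0.80 relative to its chromosome.

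At the high end of that list FOS, an immediate-early AP-1 subunit, stood at 9.05 RPKM (480 reads) against 1.85 RPKM (97 reads), a log2 ratio of 2.23. JUNB was at 0.44 and ETV1 at 0.28. The ETS factor gene ETV5 differed little, at 14.3 against 14.9 RPKM, whereas ETV4 stood at 19.1 against 28.2 RPKM, a log2 ratio of -0.56. The JUNB and ETV4 transcripts, at 64.9% and 60.8% GC, are in the class of highest GC content, whose median log2 ratio was -0.20. MYC, at 107.5 against 109.8 RPKM, and the epiregulin gene EREG, at 161 against 156 RPKM, were nearly level. ETV4, ETV5, MYC, EREG, HRAS, NF1, RASA1 and PHLDA3 are named outside the rule for named genes, after their values were seen. DUSP7 is in this list and among the paralogs.

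Other regulators of RAS and receptor signalling, most of them negative, showed no common direction. Of 21 listed, 19 were past 1 RPKM, with 11 above 0 and 8 below, beside 6034 and 7518 of all genes. Past 2-fold, 0 were higher and 1 was lower, beside 3.03% and 4.69%. That gene, CNKSR1, encodes a scaffold known to promote RAF activation. It stood at 0.498 RPKM (33 reads) against 1.74 RPKM (114 reads), a log2 ratio of -1.62, or -0.87 with a pseudocount of 1. RASAL2, a RAS GTPase-activating protein gene, stood at 0.55, the receptor feedback inhibitor ERRFI1 at 0.51 and RASA3 at 0.43. The ubiquitin ligase gene CBLB stood at -0.58 and PHLDA2, a relative of PHLDA1, at -0.53. PHLDA3 was at 0.06, so the 3 PHLDA genes had values of -0.92, -0.53 and 0.06. PHLDA2 and PHLDA3, at 63.1% and 59.6% GC, are in the class of highest GC content, whose median log2 ratio was -0.20.

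The parallel JNK, p38 and ERK5 cascades had 16 of 18 genes past 1 RPKM, 9 above 0 and 7 below, with a median of 0.04. Of all 13552 genes, 6034 were above 0. Past 2-fold, 0 were higher and 0 lower, beside 3.03% and 4.69% of all genes. At 1.5-fold 1 was higher, beside 8.29%, and 0 lower, beside 12.6%. MAP3K1 stood at 3.67 RPKM against 2.06 RPKM, a log2 ratio of 0.80, with the JNK gene MAPK9 at 0.52 and MAP3K7 at 0.32. MAPK12, MAP2K3 and MAP2K7 stood at -0.50, -0.48 and -0.44. Their transcripts, at 65.3%, 59.3% and 62.9% GC, are in the class of highest GC content, whose median log2 ratio was -0.20. By likeness of the log2 ratio over the 2 libraries, ERRFI1 and MAPK9 were the genes of the pathway lists nearest to SPRED1, with differences of 0.004 and 0.01. LIF and DUSP8 were nearest to PHLDA1, with differences of 0.18 and 0.22. The marker lists, which this rule leaves out, held nearer genes for both, with ERBB2 at 0.50 beside SPRED1 and VIM at -0.94 beside PHLDA1. Over 2 libraries this likeness compares a single ratio per gene.

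**Figure D3:**
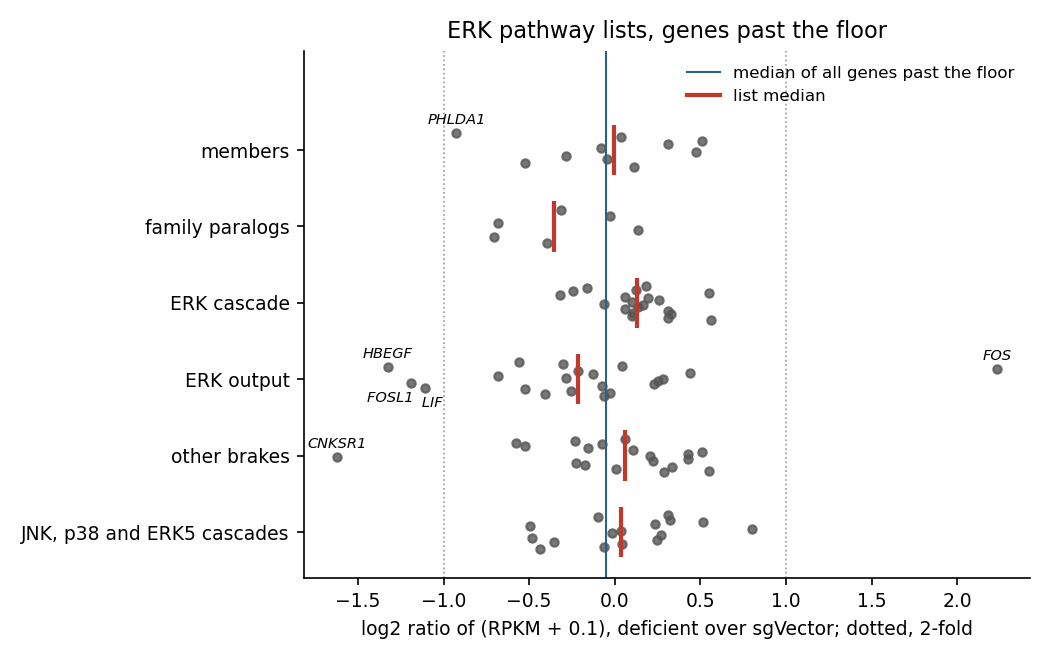
Log2 ratio of (RPKM + 0.1), deficient over sgVector, for genes averaging 1 RPKM or more in the member list and 5 lists of the pathway, with list medians in red and the median of all genes in blue. Genes at or past 0.9 in size are named. The cascade genes all lie within 1.5-fold, while the output genes run from -1.33 for HBEGF to 2.23 for FOS.

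The direction of the member ratios was set against 9 other scalings and corrections. DUSP5, PHLDA1 and IER3 stayed below 0 and SPRY2, SPRED1 and SPRED2 above 0 under all 9. The pseudocounts and library-wide scalings moved the median of all genes by at most 0.07 in size, too little to change any of these signs. With the GC and length correction IER3 came to -0.04, and relative to the chromosome median SPRY2 came to 0.01. DUSP1 and SPRY4 were above 0 under 8 of the 9, with -0.08 and -0.01 relative to the chromosome median. DUSP4 was below 0 under 6 and DUSP6 under 8.

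**Figure D4:**
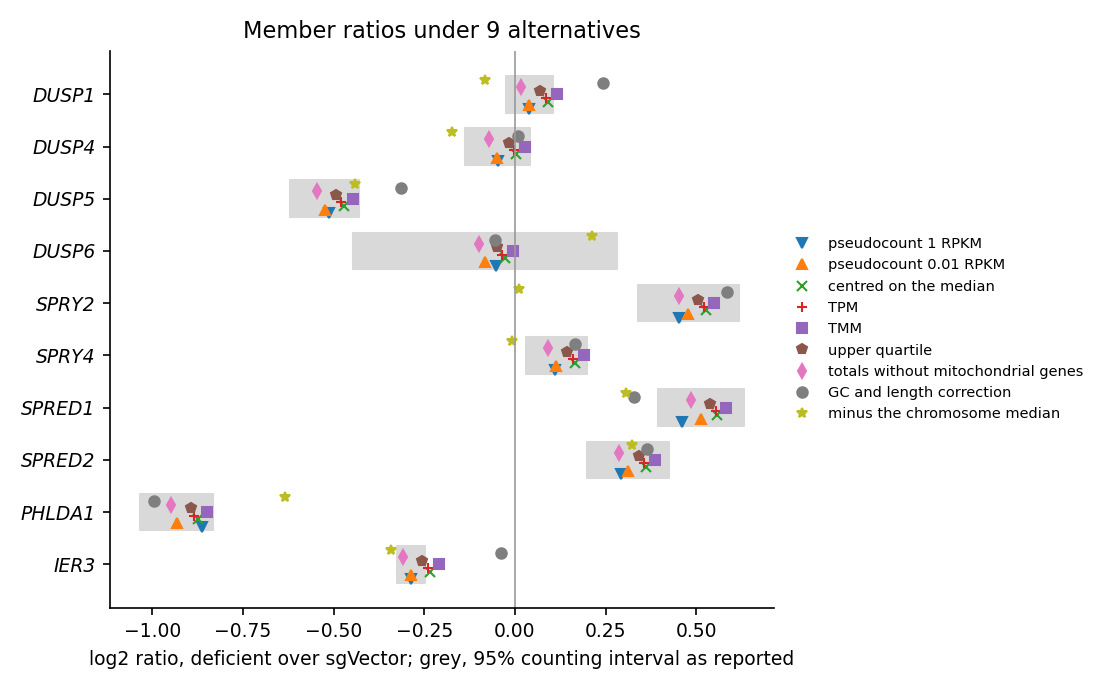
Log2 ratio of each member, deficient over sgVector, under 9 alternatives (symbols), with the 95% counting interval of the reported value in grey. SPRY2 goes from 0.47 to 0.01 when the chromosome median is subtracted, and IER3 from -0.29 to -0.04 with the GC and length correction.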

How the data were processed

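RNA of SUM-159 cells was sequenced in 1 PD-L1L2-SE deficient and 1 sgVector library. The authors deposited RPKM values per gene with exon positions and gene length, per the file headers. Subread and featureCounts 1.6.4 with builds GRCh37 and hg19 are named, per the submitters' processing notes. The sources used here give neither annotation release nor strand setting, so reads of overlapping genes are uncertain. The labels give polyA RNA.

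RPKM times length came in steps of whole reads for 100% of values (within 1e-06), which gave 16381546 and 16206675 reads. Symbols matched 56414 of 60880 rows, and GENCODE release 29 gave types and GC content. The 41 chromosome Y copies were left out. Ratios are log2 of (RPKM + 0.1), deficient over sgVector, among genes averaging 1 RPKM or more (the floor), and folds are ratios of read shares with 95% Clopper-Pearson intervals. PCR reads are not independent molecules. Calls used 2-fold. Named were all members, PD-1 ligand genes, paralogs, flanking genes, the 3 highest and 3 lowest genes past the floor of each list, and the 2 nearest ratios to the highest and lowest member. Some listed genes that the rule takes in are not reported here. Members and lists were chosen with earlier results of these data known. Alternatives were pseudocounts of 1 and 0.01, centring, TPM, TMM (30% and 5% trimmed), upper-quartile scaling, totals without mitochondrial genes, lowess on GC and length (share 0.3), chromosome medians, other floors and thresholds. Their use on listed genes past 2-fold and on list directions was added after seeing the data. Read recovery, counting intervals, log2 ratios and TMM were run on simulated counts that held counting error only. The GC and length correction, chromosome medians, neighbours and promoter search were not. Software was Python 3.11.15 with statsmodels 0.14.6, scipy 1.17.1, pandas 2.3.3, matplotlib 3.10.9 and numpy 2.4.6.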

Additional observations from a re-analysis of the deposited data

How the results depend on the processing

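Of 90 member values under alternatives, 15 lay outside the counting interval and 75 within it. With TMM scaling DUSP1 was 0.11 and IER3 -0.21, and IER3 was -0.23 with centring and -0.24 as TPM. With the GC and length correction DUSP1 was 0.24, DUSP5 -0.31, SPRED1 0.33 and IER3 -0.039. Relative to the chromosome median DUSP1 was -0.084, DUSP4 -0.17, SPRY2 0.012, SPRY4 -0.0091, SPRED1 0.31, PHLDA1 -0.63 and IER3 -0.34. Scaling moved the median of all genes by at most 0.07 in size (TMM). Members past the threshold stayed at 0 higher and 0 lower, except for 1 lower at 1.5-fold. Against 411 genes higher and 636 lower, the counts were 115 and 152 at a 5 RPKM floor, 642 and 1138 at 0.5 RPKM, 2575 and 3711 without one, 215 and 344 with a pseudocount of 1, and 222 and 219 for protein-coding genes alone. The paralog median, at -0.35, was -0.028 at a 0.5 RPKM floor and -0.17 without one, where more genes entered. The JNK, p38 and ERK5 median, at 0.04, was 0.24 at a 5 RPKM floor, where fewer genes entered. For the scalings and corrections the cause was not tested. Depth limits DUSP6, at 126 and 132 reads. No paired analysis was possible because each group has 1 library.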

Other observations

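Listed genes of the pathway with few reads in 1 library fell under the floor of 1 RPKM and were looked at after their values were seen. IL17RD, which encodes an inhibitor of FGF receptor signalling to ERK, had 39 reads in deficient cells and 0 in sgVector cells. Set against 3 reads for the library at 0, it was at least 12.9-fold higher, at a level of 0.249 RPKM, while the counting interval of the ratio began lower, at 9.97. MAP2K6, a kinase gene upstream of p38, had 30 reads against 1, a ratio of 29.7 (4.93 to 1211). Both are low levels beside the Sprouty genes, and neither has a replicate check.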
